A study of Mus musculus with 4 samples.

Results

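The genes described here are 46 named genes of DNA repair and lesion bypass, chosen by name and not by their values. They were found as all non-control probes whose gene name in the array files equals one of the 46 names, which gave 79 probes for 46 genes, of 61307 probes for 50090 gene names in all. They were measured in C3H10T1/2 cells, a mouse embryo fibroblast line used to score chemical transformation in culture. The control group was cultured for 6 weeks with no exposure named in the labels. The 3MC+TPA group received 3MC (3-methylcholanthrene, a polycyclic aromatic hydrocarbon) at 2.5 µg/ml for 2 days and later TPA (a phorbol ester that activates protein kinase C) at 100 ng/ml for 2 weeks, then grew without either for 4 weeks. Each group has 2 arrays. In the labels, part of the flasks was stained to score transformed foci and part went to the arrays, and no picking of foci before RNA extraction is described, so a flask may hold transformed and flat cells together. RNA was therefore taken weeks after the last exposure, and an early response to the chemicals was not measured.

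As background, cells activate 3MC to metabolites that bind DNA as bulky adducts. Nucleotide excision repair cuts such adducts out, and translesion polymerases copy past those that remain when replication arrives. Base excision repair removes small damaged or wrong bases, mismatch repair corrects copying errors, and a direct reversal enzyme takes alkyl groups off guanine. Double-strand breaks are sensed by the Mre11 complex, sealed by end joining or repaired from a sister copy by homologous recombination, and checkpoint kinases hold the cell cycle meanwhile. Several recombination and checkpoint genes are also known to be transcribed mainly in dividing cells.

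Each value below is the log2 of the scanner's processed signal after subtraction of that array's 75th percentile, so 0 is the signal of a probe brighter than 75% of probes on that array, and a difference of 1 between groups is a 2-fold change. A gene is read by its brightest probe, and levels of different probes are not compared. A gene was tested where that probe was well above background on both arrays of a group, which held for 46 of 46 genes, 44 of them on all 4 arrays. Each change is the 3MC+TPA mean minus the control mean with its standard error, and adjusted p comes from limma, adjusted by the Benjamini-Hochberg procedure across 24981 tested features. "Rose" and "fell" are kept for genes with an adjusted p under 0.05. The labels do not state if both arrays of a group stem from independent cultures; the p-values therefore cover only the spread between arrays, which may be technical. In bulk RNA, fewer cells that express a gene and less of its RNA per cell cannot be told apart.

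The arrays had 32125 to 32512 spots well above background and no saturated spot. All 4 lay on 1 slide, control before 3MC+TPA, and place on that slide cannot be told apart from exposure. All 10 fibroblast markers were above background on all 4 arrays, with Dcn (-2.05), Pdgfra (-1.48) and Pdgfrb (-1.03) lower and Thy1 (2.97) higher in the 3MC+TPA group by limma. Thy1 read 2.99 and 0.87 on the control arrays and 4.78 and 5.03 on the 3MC+TPA arrays (limma adjusted p = 0.047). The size of its change therefore depends on the control array used. Of the markers of other cell types, 3 of 6 epithelial, 3 of 6 leukocyte and 3 of 5 endothelial ones were above background on no array. The endothelial marker Tek was above background on both 3MC+TPA arrays and neither control array. On all 4 arrays, 2 epithelial (Krt8 and Cldn3), 3 leukocyte (Cd68, Cd14 and Cd3e) and 0 endothelial markers were above background. Their part in the repair values was not tested. The control arrays differed in cell cycle genes: over 20 mitosis genes, the median of control array 1 minus control array 2 was -1.14 on the log2 scale, against 0.03 over all features.

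Most of the repair genes stayed within 2-fold, and 6 of 46 passed the test, 3 in each direction. Ung, Mgmt and Pms2 fell, which is 3 of 46 genes against 8.46% of all features tested. Mutyh, Msh3 and Xrcc5 rose, which is 3 of 46 against 7.28% of all features. These shares lie near those of the array as a whole. The median change over the 46 genes was -0.12, against -0.01 over all features, and 27 genes lay below 0 and 19 above. The groups did not overlap in 20 genes with lower 3MC+TPA values, beside a background of 32.3% of features, and in 10 genes with higher values, beside 31.3%. An unadjusted p under 0.05 was found for 15 of the 46 (32.6%), near the 33.6% of all features tested.

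**Figure D1:**
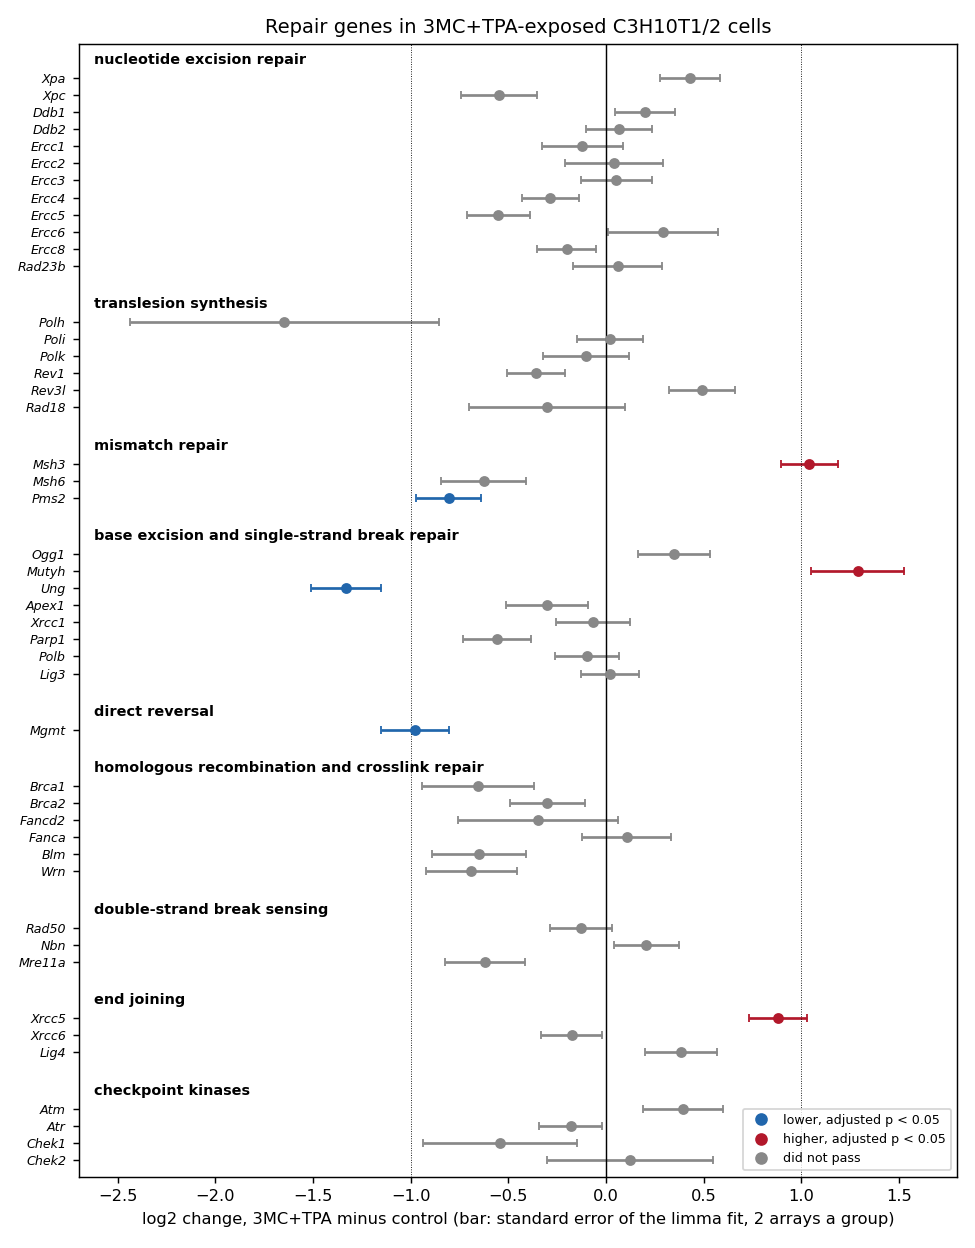
Change of each of the 46 repair genes on the log2 scale (3MC+TPA mean minus control mean, n = 2 arrays a group), with bars of 1 standard error, ordered by repair pathway; blue marks the genes that fell, red those that rose and grey those that did not pass the test. Ung, Mgmt and Pms2 lie below 0 and Mutyh, Msh3 and Xrcc5 above it, and the bar of Polh, with a standard error of 0.79, is the longest.

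In base excision repair, 1 of 8 genes fell and 1 rose, beside 8.46% and 7.28% of all features. Both encode glycosylases, enzymes that open the pathway, as does Ogg1, which did not pass. Ung encodes uracil-DNA glycosylase, which removes uracil from DNA. Its log2 signal was -0.51 and -0.35 on the control arrays and -1.62 and -1.90 on the 3MC+TPA arrays. Both 3MC+TPA arrays lay below both control arrays by more than 1 log2 unit, and Ung fell by 1.33 ± 0.18 (SE; limma adjusted p = 0.011), a 2.51-fold difference. Leaving out control array 2 gave a change of -1.25 with a limma adjusted p of 0.061, and leaving out 3MC+TPA array 2 gave -1.19 with 0.069, so the call was lost without either, while it held without control array 1 or 3MC+TPA array 1.

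Mutyh encodes the glycosylase that removes adenine paired with oxidised guanine. Its log2 signal was -0.83 and -1.33 on the control arrays and 0.04 and 0.38 on the 3MC+TPA arrays. Both 3MC+TPA arrays were above both control arrays, and Mutyh rose by 1.29 ± 0.24 (limma adjusted p = 0.027), a 2.44-fold difference. A second, dimmer Mutyh probe was well above background on both 3MC+TPA arrays and on neither control array, so it gives no measured difference. Without control array 2 the change was 1.04 and the limma adjusted p 0.098, without 3MC+TPA array 1 it was 1.46 with 0.086, and without 3MC+TPA array 2 it was 1.12 with 0.14, while the call held without control array 1.

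The other 6 base excision and break-sealing genes did not pass the test. Ogg1, the glycosylase for oxidised guanine, had a change of 0.35 ± 0.18, with all of its tested probes above 0. Parp1, which binds broken strands and makes poly(ADP-ribose), read 1.91 and 2.02 on the control arrays and 1.55 and 1.27 on the 3MC+TPA arrays. Its arrays did not overlap between groups, and the change of -0.56 ± 0.17 had a limma adjusted p of 0.094. Apex1, the endonuclease that cuts at sites without a base, had -0.30 ± 0.21, and Polb, the polymerase that fills the gap, -0.10 ± 0.16. Xrcc1, the scaffold of the pathway, had -0.07 ± 0.19 and its partner ligase Lig3 0.02 ± 0.15. The pathway's median was -0.08, with 1 gene called in each direction.

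Direct reversal is represented by Mgmt, the methyltransferase that takes alkyl groups from guanine. Its log2 signal was 2.42 and 2.58 on the control arrays and 1.40 and 1.64 on the 3MC+TPA arrays. The groups were separated by more than the spread within either, and Mgmt fell by 0.98 ± 0.17 (limma adjusted p = 0.024), a 1.97-fold difference. With any 1 array left out the change stayed between -1.10 and -0.86, but the limma adjusted p rose to between 0.068 and 0.11, so the call needs all 4 arrays. Without scaling between arrays the change was -0.62 with a limma adjusted p of 0.081.

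In mismatch repair, 1 of the 3 genes measured here rose, 1 fell and 1 did not pass the test. Over all features tested, 7.28% were called higher and 8.46% lower. Msh3, which pairs with a partner protein to recognise small insertion and deletion loops, read 0.13 and 0.07 on the control arrays and 1.15 and 1.13 on the 3MC+TPA arrays. Replicates lay within 0.1 of each other, and Msh3 rose by 1.04 ± 0.15 (limma adjusted p = 0.013), a 2.06-fold difference. Of its other probes, one gave 0.78 with a limma adjusted p of 0.040 over all probes, one 0.42 with 0.13, and the last was above background on no array. Pms2, the endonuclease subunit that nicks the strand to be corrected, read -0.63 and -0.44 on the control arrays and -1.43 and -1.25 on the 3MC+TPA arrays. Its groups did not overlap, and it fell by 0.81 ± 0.17 (limma adjusted p = 0.036), a 1.75-fold difference. Msh6, which recognises single-base mismatches, read 3.34 and 3.79 on the control arrays and 3.07 and 2.81 on the 3MC+TPA arrays. The groups did not overlap, and the change of -0.63 ± 0.22 did not pass (limma adjusted p = 0.12). With any 1 array left out neither Msh3 nor Pms2 passed: the limma adjusted p was 0.052 to 0.078 for Msh3 at changes of 1.01 to 1.07, and 0.084 to 0.15 for Pms2 at changes of -0.90 to -0.71. Without scaling between arrays, Pms2 had a change of -0.45 with a limma adjusted p of 0.16.

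**Figure D2:**
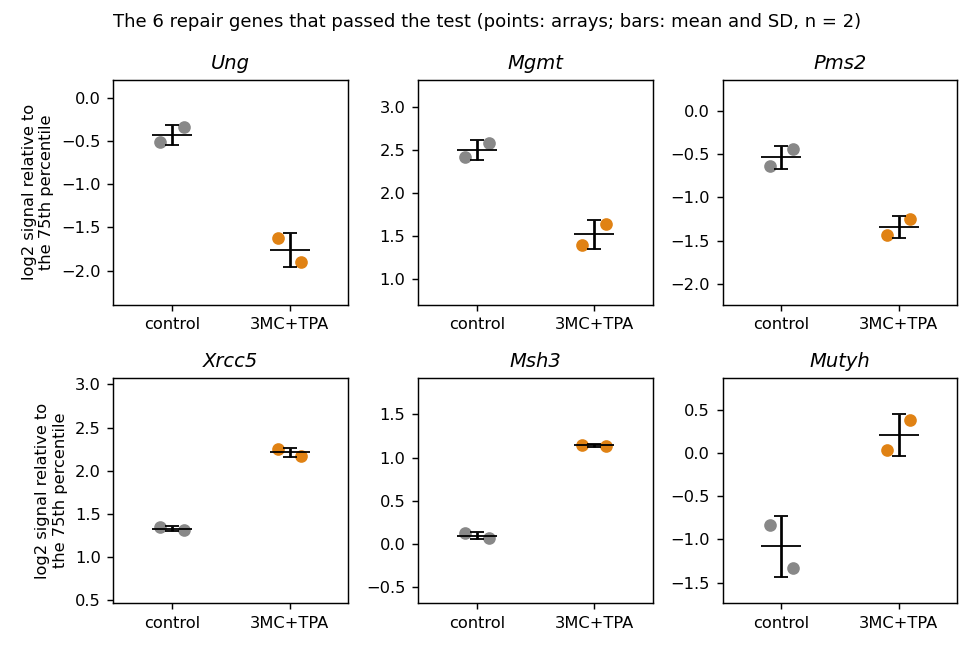
Log2 signal, scaled to each array's 75th percentile, of the 6 repair genes that passed the test, with a point for each array and a bar for the mean and SD of each group (n = 2 arrays). In each panel both 3MC+TPA points lie on the same side of both control points, and every panel spans the same number of log2 units.

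The start regions of Mutyh and Pms2 are shown because these called genes each start within 500 bases of an end of a neighbouring gene, whose values are set beside theirs further on. Each is the 300-base window from 250 bases before to 50 bases after the gene's start, taken from RefSeq on GRCm38.p6, 5′ to 3′ on the gene's strand: Mutyh at chr4:116807484-116807783 (plus strand) and Pms2 at chr5:143909751-143910050 (plus strand). Capitals mark, on either strand, matches to any of 4 motifs: an E2F site (TTTCCCGC, TTTCGCGC, TTTGCCGC or TTTGGCGC), TNGCGTG (the core bound by the aryl hydrocarbon receptor, which 3MC activates), CCAAT and GGGCGG (a GC box).
Mutyh: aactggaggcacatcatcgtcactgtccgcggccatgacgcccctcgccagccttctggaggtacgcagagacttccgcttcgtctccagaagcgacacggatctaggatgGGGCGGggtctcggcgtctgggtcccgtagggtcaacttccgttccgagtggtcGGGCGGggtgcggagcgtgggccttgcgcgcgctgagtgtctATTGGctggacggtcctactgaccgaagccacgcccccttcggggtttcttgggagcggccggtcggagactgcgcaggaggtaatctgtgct
Pms2: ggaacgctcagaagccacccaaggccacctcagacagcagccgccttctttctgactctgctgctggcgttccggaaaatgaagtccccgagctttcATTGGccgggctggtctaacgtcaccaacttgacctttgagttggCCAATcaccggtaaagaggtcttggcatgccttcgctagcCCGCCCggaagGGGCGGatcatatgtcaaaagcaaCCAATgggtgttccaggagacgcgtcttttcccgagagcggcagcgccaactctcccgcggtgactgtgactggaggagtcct
The Mutyh window held 1 CCAAT and 2 GC boxes, and the Pms2 window 3 CCAAT and 2 GC boxes; neither held an E2F or TNGCGTG match. Such a match describes the letters of the window and is not evidence that a factor binds there.

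RefSeq gave a window for 36 of the 46 genes. An E2F match was in 5 of the 36 (13.9%; Brca2, Chek2, Msh3, Msh6 and Xrcc6), against 3.29% of 17492 protein-coding genes. TNGCGTG was in 3 of 36 (8.33%; Ercc8, Msh3 and Xrcc1) against 6.9%, CCAAT in 20 of 36 (55.6%) against 42.3%, and GGGCGG in 26 of 36 (72.2%) against 49.2%. Over all 27025 windows, non-coding genes included, the shares were 2.6%, 5.84%, 41.1% and 38.2%. Of the 5 genes with an E2F match, Msh3 rose, and the changes of the other 4 lay between -0.63 and 0.12 and did not pass the test.

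A protein-coding neighbour with an end within 500 bases of the start is given for 15 of these genes, and in 13 of the pairs the neighbour was tested too. None of the 13 neighbours passed the test by limma, beside 8.46% of all features called lower and 7.28% higher. In 9 of the 13 pairs the signs were the same, among them Lig4 with Abhd13, whose change was 0.0004. How often pairs of other genes share a sign was not counted. The neighbours were looked up after the members' values had been seen. Beside Mutyh, Toe1 had a change of 0.23 ± 0.15 (limma adjusted p = 0.35). Aimp2, a scaffold of the aminoacyl-tRNA synthetase complex beside Pms2, read -1.18 and -1.09 on the control arrays and -1.90 and -1.48 on the 3MC+TPA arrays. Its groups did not overlap, and its change of -0.56 ± 0.20 has the sign of the Pms2 change (limma adjusted p = 0.12). The difference between a member's change and its neighbour's was not tested.

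**Figure D3:**
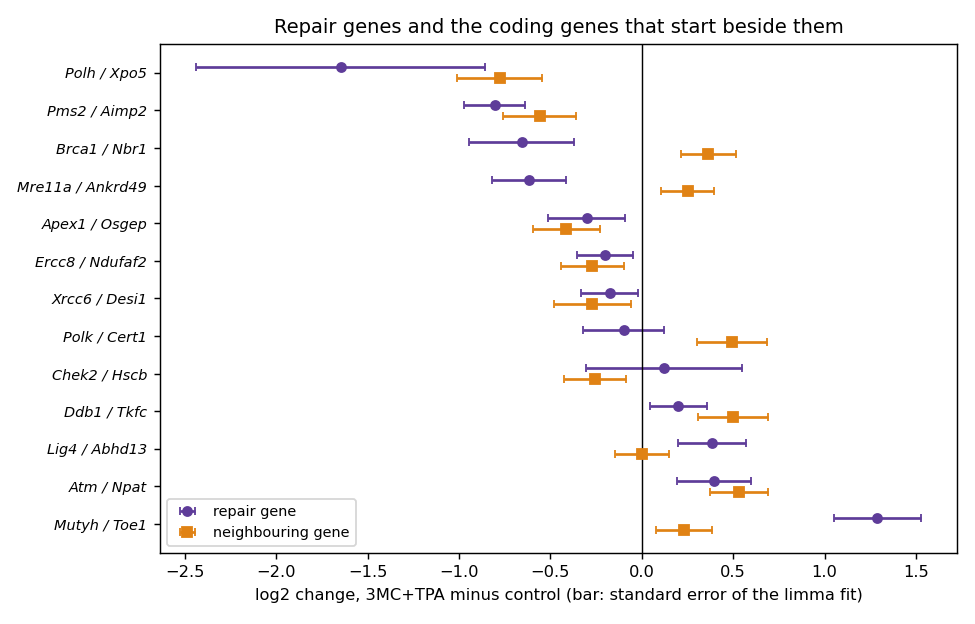
Log2 change (3MC+TPA minus control) of 13 repair genes and of the protein-coding gene next to the start of each, with bars of 1 standard error. The Pms2 and Aimp2 points lie on the same side of 0, at -0.81 and -0.56, while the Mutyh point, at 1.29, lies far to the right of the Toe1 point, at 0.23.

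Among the 3 end-joining genes, 1 passed, beside 8.46% of all features called lower and 7.28% higher. Xrcc5 encodes Ku80, which with Ku70 caps a broken DNA end. It read 1.35 and 1.31 on the control arrays and 2.25 and 2.18 on the 3MC+TPA arrays. Replicates lay close together, and Xrcc5 rose by 0.88 ± 0.15 (limma adjusted p = 0.021), a 1.84-fold difference. With any 1 array left out the change stayed between 0.85 and 0.92, at a limma adjusted p of 0.074 to 0.11, so the call needs all 4 arrays. Its partner subunit Ku70, encoded by Xrcc6, had a change of -0.17 ± 0.16 (limma adjusted p = 0.49), and its 95% interval ran from -0.57 to 0.22. The interval of Xrcc5 ran from 0.50 to 1.26, and the difference between both genes was not tested. Lig4, the ligase that seals the ends, had 0.39 ± 0.19 (limma adjusted p = 0.22).

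None of the 12 nucleotide excision repair genes passed the test, beside 8.46% of all features called lower and 7.28% higher. Of the 12, 10 had a 95% interval that lay wholly within 2-fold in either direction. This held for 27 of all 46 repair genes, and the share over all features was not counted. The median change of the 12 was 0.05, with 5 genes below 0 and 7 above. The damage sensors come first. Xpc, which finds distorted DNA across the genome, read 2.28 and 1.88 on the control arrays and 1.57 and 1.50 on the 3MC+TPA arrays. Its groups did not overlap, and the change was -0.55 ± 0.19 (limma adjusted p = 0.12). Its partner Rad23b had 0.06 ± 0.23 by the brightest probe, while its other probes gave 0.49 with a limma adjusted p of 0.17 and 0.81 with 0.030 over all probes, so this gene's call rests on the choice of probe. Ddb1 and Ddb2, which together detect ultraviolet lesions, had 0.20 ± 0.16 and 0.07 ± 0.17.

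Xpa, which checks the lesion and places the nucleases, read 1.37 and 1.28 on the control arrays and 1.70 and 1.81 on the 3MC+TPA arrays. Both 3MC+TPA arrays were higher, and the change of 0.43 ± 0.15 had a limma adjusted p of 0.12. The helicases of transcription factor IIH, Ercc2 and Ercc3, had 0.04 ± 0.25 and 0.05 ± 0.18, and the Ercc2 probe was not above background on control array 1. Ercc5, the nuclease that cuts 3′ of the lesion, read -0.43 and -0.22 on the control arrays and -0.86 and -0.89 on the 3MC+TPA arrays. Both 3MC+TPA arrays were lower, and the change of -0.55 ± 0.16 (limma adjusted p = 0.081) had the lowest adjusted p of the pathway. The subunits of the nuclease that cuts 5′ of the lesion, Ercc1 and Ercc4, had -0.12 ± 0.21 and -0.28 ± 0.15. Ercc6 and Ercc8, which act where RNA polymerase has stalled, had 0.29 ± 0.28 and -0.20 ± 0.15.

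None of the 6 lesion bypass genes passed the test either, beside 8.46% of all features called lower and 7.28% higher. Their median was -0.20. Polh encodes polymerase eta, which copies past ultraviolet dimers. It read -4.05 and -3.75 on the control arrays and -4.31 and -6.78 on the 3MC+TPA arrays, where the second value was not well above background. The 3MC+TPA arrays differed by over 2 log2 units in this dim probe, and the change was -1.65 ± 0.79 (limma adjusted p = 0.22). Without 3MC+TPA array 1 it was -2.88 and passed (limma adjusted p = 0.016), and without 3MC+TPA array 2 it was -0.41, with a limma adjusted p of 0.35, so the value rests on 1 array. Rev3l, the catalytic subunit of polymerase zeta, read 2.49 and 2.27 on the control arrays and 2.94 and 2.80 on the 3MC+TPA arrays. Its groups did not overlap, and the change was 0.49 ± 0.17 (limma adjusted p = 0.11).

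Rev1, the scaffold that recruits the bypass polymerases, had -0.36 ± 0.15 (limma adjusted p = 0.17). Polk, polymerase kappa, known for bypass of bulky hydrocarbon adducts, had -0.10 ± 0.22, with a 95% interval from -0.66 to 0.46. Poli, polymerase iota, had 0.02 ± 0.17, with an interval from -0.41 to 0.46. Rad18, the ubiquitin ligase that marks the replication clamp for bypass, read -0.98 and 0.20 on the control arrays and -0.63 and -0.75 on the 3MC+TPA arrays. Its control arrays lay on both sides of the 3MC+TPA arrays, and the change was -0.30 ± 0.40 (limma adjusted p = 0.64).

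In homologous recombination and crosslink repair, 5 of 6 genes had changes below 0, beside 12759 of 24981 features tested. None of the 6 passed the test, beside 8.46% of all features called lower and 7.28% higher. The median of the 6 was -0.50. Brca1, which prepares breaks for recombination, read 0.33 and 1.11 on the control arrays and 0.02 and 0.11 on the 3MC+TPA arrays. Both 3MC+TPA arrays were lower, and the change was -0.66 ± 0.29 (limma adjusted p = 0.18). A second, dim Brca1 probe was well above background on both control arrays and on neither 3MC+TPA array, so it gives no measured difference. Blm, a helicase that resolves recombination intermediates, read -0.42 and 0.11 on the control arrays and -0.65 and -0.96 on the 3MC+TPA arrays. Wrn, a related helicase and exonuclease, read -2.07 and -1.58 on the control arrays and -2.36 and -2.67 on the 3MC+TPA arrays. Neither overlapped between groups, and the changes were -0.65 ± 0.24 for Blm (limma adjusted p = 0.13) and -0.69 ± 0.23 for Wrn (limma adjusted p = 0.11).

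Brca2, which loads the recombinase, had -0.30 ± 0.19 (limma adjusted p = 0.33). Fanca, a subunit of the Fanconi core complex, had 0.11 ± 0.23. Fancd2, the protein that this complex marks with ubiquitin, read -4.00 and -2.82 on the control arrays and -3.61 and -3.90 on the 3MC+TPA arrays. The 3MC+TPA arrays lay between the control arrays, and the change was -0.35 ± 0.41 (limma adjusted p = 0.60).

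Of the Mre11 complex, Mre11a, the nuclease, read 0.82 and 1.28 on the control arrays and 0.40 and 0.46 on the 3MC+TPA arrays. Its groups did not overlap, and the change was -0.62 ± 0.21 (limma adjusted p = 0.11). Rad50, the bridging subunit, had -0.13 ± 0.16 and Nbn, the subunit that recruits the Atm kinase, 0.21 ± 0.17. Among the checkpoint kinases, Atm had 0.40 ± 0.20 (limma adjusted p = 0.24), while its second probe gave -0.08, and Atr had -0.18 ± 0.16. Chek1, the kinase that Atr activates, read -2.38 and -1.22 on the control arrays and -2.26 and -2.42 on the 3MC+TPA arrays, a change of -0.54 ± 0.39. Chek2, the kinase that Atm activates, read -3.31 and -2.04 on the control arrays and -2.48 and -2.61 on the 3MC+TPA arrays, a change of 0.12 ± 0.43. In both kinases the control arrays were further apart than the 3MC+TPA arrays, and control array 1 was the lower.

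That gap between the control arrays was seen in the 6 recombination genes as well. In Atm and Atr it had the same direction but was smaller, at -0.14 and -0.13. Control array 1 lay at least 2-fold from control array 2 in 4 of 46 repair genes (8.7%; Rad18, Fancd2, Chek1 and Chek2), against 3.59% of all features tested, and was the lower in each of the 4. The 3MC+TPA arrays were as far apart in 1 gene, Polh (2.17%), against 2.31%. Control array 1 was below control array 2 in 33 of the 46 genes (71.7%), against 45.7% of all features. The median gap was -0.15 over the 46 genes, -0.51 in homologous recombination and crosslink repair and -0.65 in the checkpoint kinases. Over 24 S-phase genes it was -0.70 and over 20 mitosis genes -1.14, so the same array was low in the cell cycle lists. Its part in the repair values was not tested beyond leaving the array out.

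**Figure D4:**
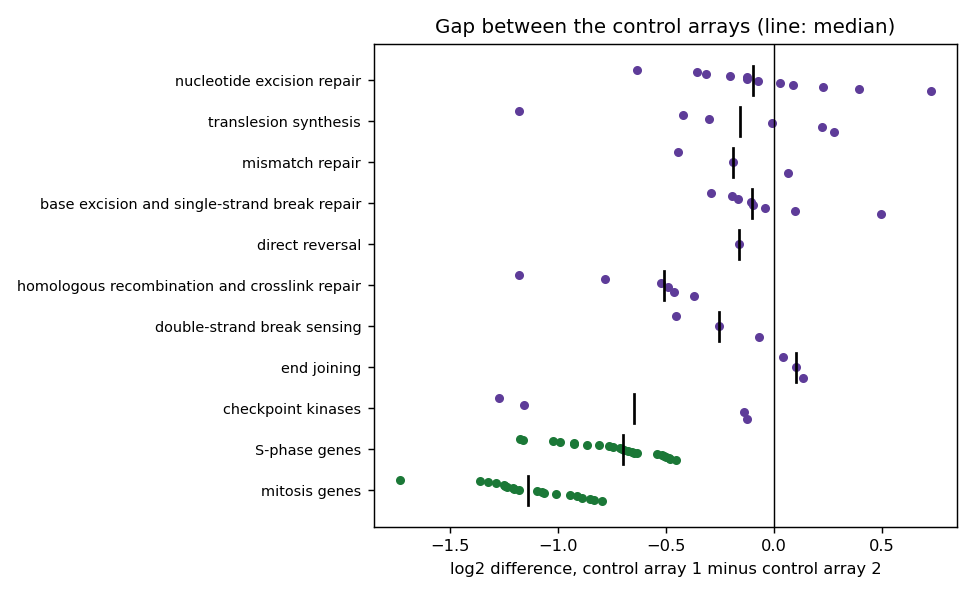
Gap between the control arrays (control array 1 minus control array 2, log2 units) for each repair gene by pathway and for lists of S-phase and mitosis genes, with a point for each gene and a black line at the median. The medians of recombination (-0.51), checkpoint (-0.65), S-phase (-0.70) and mitosis genes (-1.14) lie to the left of 0.

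Without control array 1, the change of Brca1 was -1.05, and without control array 2 it was -0.26. The corresponding values were -0.91 and -0.39 for Blm and -0.93 and -0.44 for Wrn. Over the 6 recombination genes, the median was -0.92 with control array 1 left out and -0.19 with control array 2 left out. Rad18, Fancd2 and Chek1 changed sign, from -0.89, -0.94 and -1.12 without control array 1 to 0.29, 0.24 and 0.04 without control array 2. Fanca and Chek2 changed sign in the same direction, and further genes that changed sign are listed at the end. None of these genes passed the test in either case. In the 6 called genes the arrays of the groups do not overlap, so leaving out 1 array cannot turn their sign.

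**Figure D5:**
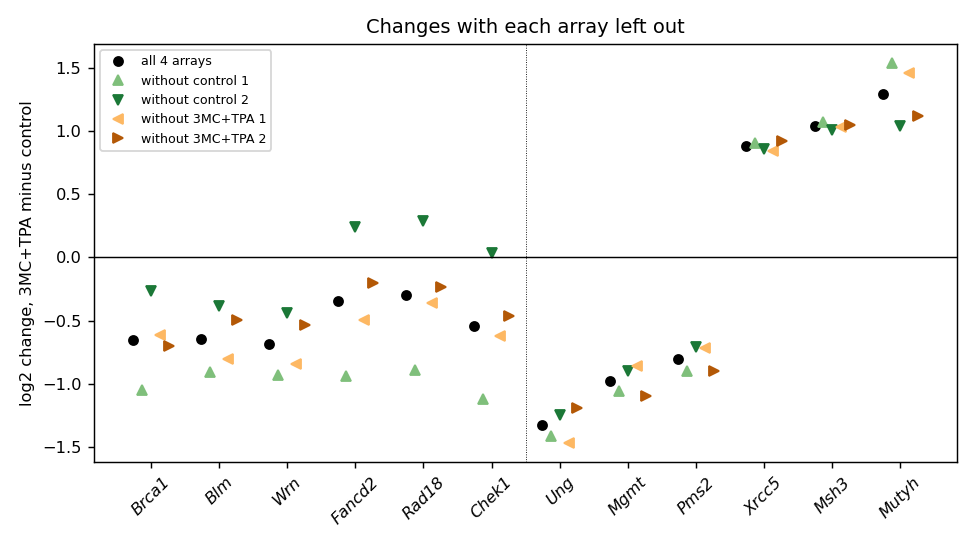
Log2 change (3MC+TPA minus control) with all 4 arrays and with each array left out in turn, for 6 genes that lie far apart between control arrays or belong to recombination (left of the dotted line) and for the 6 genes that passed the test (right of it). On the left, Chek1 moves from -1.12 without control array 1 to 0.04 without control array 2. Brca2, Fanca and Chek2, which also belong to recombination or lie far apart between control arrays, are not shown. On the right no sign change was possible, since the groups do not overlap in these genes.

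Probes of the same gene mostly pointed the same way. Of 15 genes with several tested probes measured in both groups, 14 had all of them on the same side of 0, and Atm was the exception. The widest range was in Rad23b, at 0.75. The other 31 genes had 1 such probe and allow no such comparison, among them Ung, Mgmt, Pms2, Mutyh and Xrcc5. The 4 tested probes that were above background on no array of a group, 1 each of Ercc4, Mutyh, Brca1 and Brca2, were left out of these counts.

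A wider list of 95 further repair genes gave no larger share of calls in either direction than the array as a whole. Of the 90 tested, 5 fell and 0 rose by limma, beside backgrounds of 8.46% and 7.28%, and 25 (27.8%) had an unadjusted p under 0.05, against 33.6% of all features. The median was -0.16, with 55 genes below 0 and 35 above. Cetn2, a partner of Xpc, read 2.66 and 2.94 on the control arrays and 1.87 and 1.71 on the 3MC+TPA arrays, a change of -1.01 (limma adjusted p = 0.024). Ube2a, the ubiquitin-conjugating partner of Rad18, read 2.35 and 2.26 on the control arrays and 1.51 and 1.17 on the 3MC+TPA arrays, a change of -0.96 (limma adjusted p = 0.029). In both genes each 3MC+TPA array was below each control array.

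Rad51b, listed under its older name Rad51l1 and a member of the recombinase family, read -0.03 and -0.17 on the control arrays and -1.47 and -1.59 on the 3MC+TPA arrays. Replicates lay close together, and its change of -1.43 (limma adjusted p = 0.0069) was the largest of the list's called genes. Apex2, a relative of Apex1, changed by -1.14 (limma adjusted p = 0.026) and Mdc1, the adaptor at marked breaks, by -0.70 (limma adjusted p = 0.043). Of the 24 S-phase genes, 4 fell and 0 rose by limma, beside 8.46% of all features called lower and 7.28% higher. An unadjusted limma p under 0.05 was found for 17 of the 24 (70.8%), against 33.6% of all features. The median was -0.91, and the called ones were the helicase subunits Mcm4 and Mcm6, the loading factor Cdc6 and the polymerase subunit Pola1. Of the 20 mitosis genes, none passed by limma, 1 had an unadjusted p under 0.05, and the median was -0.60. Both medians take in the gap between the control arrays, with median gaps of -0.70 for S-phase and -1.14 for mitosis genes. Neither these medians nor the calls among further repair and S-phase genes were examined with an array left out.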

How the data were processed

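RNA from 2 control and 2 3MC+TPA-exposed samples of C3H10T1/2 cells was read in 1 colour (Cy3) on a custom Agilent mouse array. The groups and replicate numbers come from the sample titles. The intensity values were extracted, per the file headers, by Feature Extraction 10.7.3.1 of Agilent, whose processed signal is background-subtracted and detrended brightness with a substitute for dim spots. Per the series' design text, the submitters analysed the arrays in GeneSpring GX 11.5 with a t-test; its threshold was not found in these sources.

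From these files, the processed signal was put on a log2 scale and the 75th percentile of the non-control probes was subtracted for each array (a signal of 534.9 and 588.9 on the control arrays and of 695.7 and 740.9 on the exposed ones). Control spots (1319 an array) and 20 to 68 outlier spots an array were left out, and spots of a probe were averaged. The authors' deposited log2 values, whose column medians are -4.29, -4.31, -4.39 and -4.35, equalled these within 0.01 for 61148 of 61307 probes, so their scale and direction are known and genes are not centred; they served as an alternative. They differed by at most 0.0092 for the repair probes. Changes were tested with limma 3.58.1 in R 4.3.3 (lmFit and eBayes, 2-sided, Benjamini-Hochberg over all features tested), after a check on simulated data. The number of arrays limits the precision.

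The 46 genes were chosen by name and not by their values. Even so, earlier results of these data were known when genes, pathways, lists and tests were chosen. All 46 repair genes are accounted for. Those that passed the test, those at least 2-fold apart without overlap and those below background in a group have every array's value, and further repair and cell cycle genes are given by counts, with those called named; other genes with array values were chosen after their values were seen. Arrays with the same replicate number showed no shared shift: the correlation of the gaps between replicates was 0.0028 over 24919 features. This correlation cannot show if the arrays were paired by design. Alternatives were other backgrounds, scalings, filters, probe rules and tests, leaving out each array, and the replicate block. Promoter windows and neighbours come from RefSeq tables on GRCm38.p6; the array files name mm9, and only gene names link them. Some neighbouring genes are not reported here.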

Additional observations from a re-analysis of the deposited data

How the results depend on the processing

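The counts of 3 repair genes lower, 3 higher and 3931 features called were set against 18 alternatives. The same 6 genes passed with the deposited values, quantile normalization, a percentile over detected probes, the stricter filter, the mean of a gene's probes, the variance trend and the replicate block (3 lower, 3 higher, 3460 features). Normexp added Parp1 and Xpa, and every probe by itself added Rad23b and Brca1, the latter by a probe not above background on the 3MC+TPA arrays. No scaling moved the median of all features from -0.01 to 0.34 and the share of calls that were higher from 46.2% to 79.1%. It gave 1 lower, 7 higher and 6723 features, lost Mgmt and Pms2 and added Atm, Lig4, Rev3l and Xpa. No filter on dim probes gave 0, 0 and 933 (9731 features with an unadjusted p under 0.05 by limma). The methods' t-test gave 0, 0 and 23 after Benjamini-Hochberg and, unadjusted, 6 lower and 3 higher, without Mutyh, and 5695 features; asking for 2-fold as well left 1 lower, 2 higher and 2777 features. Leaving out 1 array gave 0 to 2 lower, 0 to 1 higher and 1350 to 2764 features; without control array 2 or 3MC+TPA array 2 no repair gene passed, and without 3MC+TPA array 1 Polh did. The cause of these differences was not tested.

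Reversals came only in genes that passed in neither setting. Without scaling, Ercc1 (0.23), Ercc4 (0.071), Ercc8 (0.15), Polk (0.26), Rad18 (0.054), Apex1 (0.054), Xrcc1 (0.29), Polb (0.26), Brca2 (0.055), Fancd2 (0.0075), Rad50 (0.23), Xrcc6 (0.18) and Atr (0.18) moved above 0. With normexp, Ercc2 (-0.15), Poli (-0.016) and Chek2 (-0.046) moved below it. Over the arrays left out, values ran from -0.044 to 0.18 for Ddb2, -0.30 to 0.058 for Ercc1, -0.28 to 0.36 for Ercc2, -0.10 to 0.21 for Ercc3, -0.070 to 0.66 for Ercc6, -0.22 to 0.34 for Rad23b, -0.12 to 0.16 for Poli, -0.31 to 0.11 for Polk, -0.89 to 0.29 for Rad18, -0.24 to 0.10 for Xrcc1, -0.21 to 0.012 for Polb, -0.029 to 0.070 for Lig3, -0.94 to 0.24 for Fancd2, -0.13 to 0.34 for Fanca, -1.12 to 0.037 for Chek1 and -0.51 to 0.76 for Chek2.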
